A study of Mus musculus with 36 samples.

Results

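The 38 genes described here encode homeodomain transcription factors that lie outside the Hox clusters. They are *Dlx1* to *Dlx6*, *Irx1* to *Irx6*, *Six2* to *Six6*, *Lhx1* to *Lhx6*, *Lhx8*, *Lhx9*, *Pitx1*, *Pitx3*, *Otx1*, *Otx2*, *Gsc*, *Msx1*, *Msx2*, *Emx1*, *Emx2*, *En1*, *En2*, *Barx1* and *Barx2*. They were chosen by name as developmental regulators, with earlier results of these data known, out of 22379 annotated mouse genes with an Entrez identifier. Peaks of H3K27me3 (K27me3) and H3K4me3 (K4me3) were mapped by ChIP-Seq, in which an antibody to the modified histone recovers the DNA bound to it, in whole pancreas of 3 control and 3 *EZH2*ΔSET mice. A gene was called for a mark in a mouse when a peak of that mouse overlapped the 3 kb on either side of any of its annotated transcription start sites (TSSs). The K27me3 domain width of a gene is the summed length of all K27me3 peaks that overlap the gene extended by 3 kb, and its K4me3 width is the summed length of the K4me3 peaks in its TSS windows.

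All mice received tamoxifen by gavage at 2 to 4 months of age and were sampled 22 days later. Control mice were C57BL/6 or carried only the *Mist1*creERT allele. *EZH2*ΔSET mice carried *Mist1*creERT/+ and loxP-flanked exons for the SET domain, the catalytic part of EZH2, on both *Ezh2* alleles. Cre made from the *Mist1* locus acts in acinar cells, so duct, islet, stromal and blood cells of the same tissue kept intact alleles. In whole tissue, fewer cells of a type and less of a mark per cell cannot be told apart. The peak lists hold no reads over the deleted exons, so they could not check the deletion, and *Ezh2* itself had K4me3 and no K27me3 at its TSS in 6 of 6 mice. As a check of the tissue, 11 of 11 acinar marker genes had K4me3 in all 6 mice, against 3 of 5 duct, 1 of 7 islet, 1 of 4 endothelial, 0 of 5 leukocyte and 2 of 4 fibroblast markers. The hormone genes *Ins1*, *Ins2*, *Gcg*, *Sst* and *Ppy* had no K4me3 in any mouse.

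Homeodomain factors bind DNA through a conserved helical fold and assign position and cell identity in the embryo, where Dlx and Msx factors pattern the face and limbs, Otx, Emx, En and Gsc factors the head and brain, factors made from *Six2* to *Six6* the eye, kidney and muscle, and LIM-homeodomain (Lhx) factors neurons and forebrain. Polycomb repressive complex 2, of which EZH2 is a catalytic subunit, places K27me3 over such genes in tissues that do not use them, often as domains much wider than the gene. K4me3 is found at active promoters and, together with K27me3, at promoters held in a silent but primed state, most of them rich in CpG.

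Stretches just upstream of a RefSeq start of 4 members are printed because these genes stand for the chromatin patterns that the measurements below turn on. *Gsc* carried both marks near its TSS in all mice, *Six3* had the widest median K27me3 domain over the 6 mice among members with an entry, *Six5* had K4me3 alone, and *Lhx2* had both marks in all mice and was among the few members whose K4me3 width separated the genotypes. Capitals mark CpG dinucleotides, the sequences are from RefSeq on GRCm38.p6, and each runs 5′ to 3′ on the strand of its gene and stops at or before that start.
*Gsc*, chr12:104473331-104473486, minus strand: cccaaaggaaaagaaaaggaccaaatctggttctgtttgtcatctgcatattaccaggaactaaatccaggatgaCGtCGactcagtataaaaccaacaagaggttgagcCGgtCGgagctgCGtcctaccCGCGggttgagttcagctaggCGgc
*Six3*, chr17:85620584-85620833, plus strand: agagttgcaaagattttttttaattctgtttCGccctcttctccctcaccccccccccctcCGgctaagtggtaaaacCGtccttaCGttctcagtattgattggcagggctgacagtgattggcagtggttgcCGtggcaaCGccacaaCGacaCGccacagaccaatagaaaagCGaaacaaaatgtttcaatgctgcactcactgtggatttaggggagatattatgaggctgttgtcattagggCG
*Six5*, chr7:19094294-19094543, plus strand: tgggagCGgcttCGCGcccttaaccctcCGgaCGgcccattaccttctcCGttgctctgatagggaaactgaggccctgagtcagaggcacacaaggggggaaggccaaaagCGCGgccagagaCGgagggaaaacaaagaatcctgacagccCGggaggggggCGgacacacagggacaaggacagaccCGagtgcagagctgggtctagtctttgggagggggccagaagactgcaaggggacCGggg
*Lhx2*, chr2:38339031-38339280, plus strand: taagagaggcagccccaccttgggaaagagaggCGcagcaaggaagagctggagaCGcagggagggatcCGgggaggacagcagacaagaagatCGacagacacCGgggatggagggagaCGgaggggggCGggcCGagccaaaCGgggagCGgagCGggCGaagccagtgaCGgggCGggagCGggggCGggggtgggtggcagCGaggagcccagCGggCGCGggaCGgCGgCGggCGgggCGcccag
The *Gsc* stretch holds 8 CpG and overlaps an exon of the noncoding *Gm10000*, which starts 0.001 kb away on the other strand. The *Six3* stretch holds 10 CpG, belongs to a RefSeq start 7226 bases inside the annotated *Six3* gene and overlaps an exon of the antisense *Gm28528*. The *Six5* stretch holds 13 CpG and the *Lhx2* stretch 25, and neither overlaps an annotated gene. A K27me3 peak reached into the printed stretch in 1 of 6 mice at *Gsc*, 4 at *Six3*, 0 at *Six5* and 5 at *Lhx2*. A K4me3 peak did so in 4, 0, 5 and 0 mice. At *Lhx2*, with 7 annotated TSSs over a gene of 30.5 kb, the called K4me3 thus lay outside this stretch and may lie at another TSS. At *Gsc*, with 1 annotated TSS, the K27me3 called within 3 kb mostly lay to the sides of the stretch.

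Member promoters were rich in CpG. Within 1 kb of the gene start on mm10, the ratio of observed to expected CpG had a median of 0.65 over the 38 members, from 0.14 at *Lhx4* to 0.93 at *En2*, against 0.47 over all 22379 genes. It was at least 0.6 at 26 members, 68.4%, and at 33.4% of all genes. RefSeq promoter entries were found for 26 members, with 34 promoters, and the 250 bases upstream held a median of 16.5 CpG against 6 over 32851 promoters. The letters TAATTA, a core that many homeodomains bind and that reads the same on both strands, were in 3 of the 34 member promoters, which belong to 2 members, and in 4.84% of all 32851.

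Before the members are compared, the control libraries need describing, since 2 of the 3 stood apart. A K27me3 peak lay within 3 kb of a TSS at 10.5% of all genes in control mouse 1, the lowest of the 6 mice, and at 24.5% in control mouse 2, the highest, while the other 4 mice lay between 12.3% and 15.5%. For K4me3 the 6 mice lay between 59.5% and 62%. The lists held 21420 to 31274 K27me3 peaks and 17400 to 25886 K4me3 peaks per mouse, with control mouse 2 lowest for both. Control mouse 1, with the fewest genes called for K27me3, had the most K27me3 peaks. The median autosomal K27me3 peak was 6.28 kb wide in control mouse 1, 7.59 kb in control mouse 2 and 6.36 to 6.46 kb in the other mice. The files give no read counts, so the depth of each library is unknown and its part in these differences was not tested. K27me3 peaks on chromosome X made up 0.059% of the list in *EZH2*ΔSET mouse 2 and 22.4% to 26.3% in the other 5, and both sexes were used. All 38 members are autosomal, so shares of autosomal genes are given beside those of all genes for the counts per genotype and the comparison of widths.

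K27me3 lay at most of the members in most mice. The number of members with K27me3 was 15, 37 and 30 in control mice 1, 2 and 3, with a mean of 27.3 ± 11.2 (SD, n = 3). In *EZH2*ΔSET mice it was 32, 27 and 33, with a mean of 30.7 ± 3.21 (SD, n = 3). Apart from control mouse 1, the other 5 mice thus ranged from 27 to 37 of 38, and the genotypes overlapped.

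**Figure D1:**
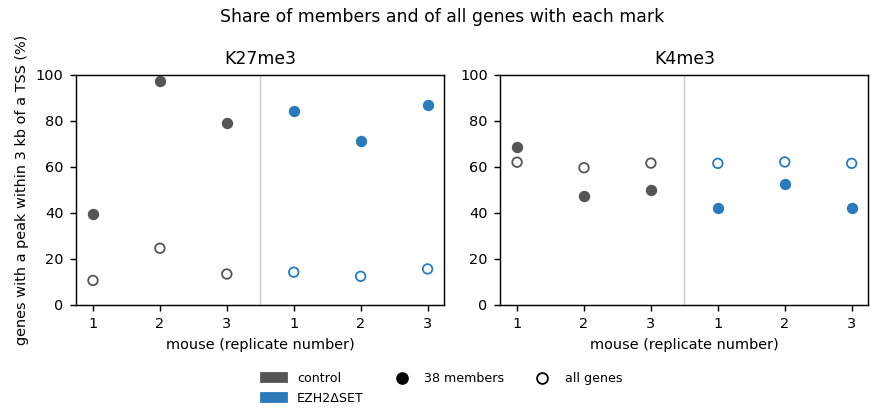
Share of genes with a K27me3 peak (left) or a K4me3 peak (right) within 3 kb of a TSS in each of the 6 mice, in percent, for the 38 members (filled) and all 22379 genes (open). For K27me3 every filled point lies above the open point of the same mouse, and for K4me3 the filled point lies below it in every mouse except control mouse 1.

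K27me3 was called in all 3 mice at 15 members in control tissue, where 5.74% of all genes were so called. In *EZH2*ΔSET tissue it was 27 members, with 7.33% of all genes. Among the 21143 autosomal genes the shares were 4.32% and 7.75%. The control count rests on mouse 1: without it, 30 members were called in both remaining control mice, with 9.21% of all and 7.19% of autosomal genes, against the 27 of *EZH2*ΔSET tissue. Over all 6 mice, 15 members were called in every mouse, against 3.56% of all genes, 10 in 5 mice, 12 in 1 to 4 mice, and 1, *Six5*, in none. Of the 23 members without K27me3 in control mouse 1, 10 were called in each of the other 5 mice.

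**Figure D2:**
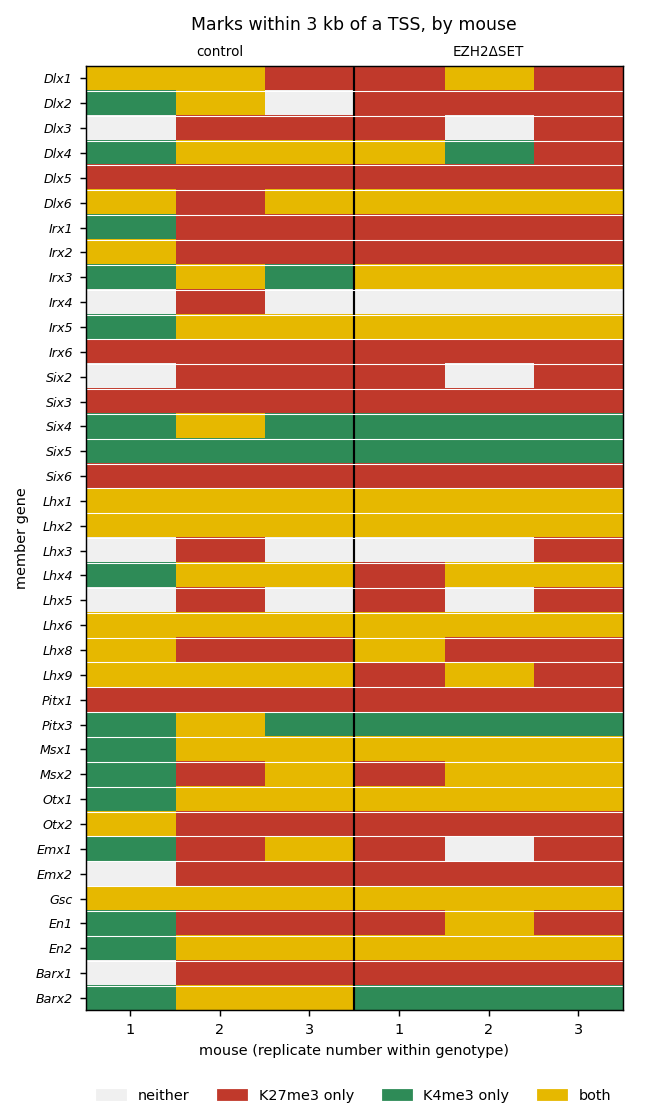
K27me3 and K4me3 calls within 3 kb of a TSS for the 38 members (rows) in the 6 mice (columns, 3 per genotype), coloured as neither, K27me3 only, K4me3 only or both. The rows of *Lhx1*, *Lhx2*, *Lhx6* and *Gsc* show both marks in all 6 mice, the row of *Six5* shows K4me3 only, and in the column of control mouse 1 the K27me3 call is missing in 23 rows.

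By median width over the 6 mice, the widest domains lay over *Dlx5*, *Dlx6*, *Six3*, *Otx2* and *Lhx4*. *Dlx5* (chr6:6877805-6882085 on mm10, as for all genes here), a regulator of craniofacial and bone development, had K27me3 domain widths of 5, 58.6 and 43.8 kb in control and 34.5, 52.7 and 55.8 kb in *EZH2*ΔSET mice. Its neighbour *Dlx6* (chr6:6863334-6868568), 9.24 kb away, had 8.5, 58.6 and 43.8 kb in control and 54.8, 52.7 and 42.2 kb in *EZH2*ΔSET mice. A single K27me3 peak reached both genes in 5 of 6 mice, all but control mouse 1, so the widths of the pair are not independent values. At both genes control mouse 1 was the lowest and control mouse 2 the highest of the 6, so the groups overlapped.

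*Six3* (chr17:85613608-85629302), which is needed for the forebrain and the lens, had widths of 10.5, 56.5 and 37.1 kb in control and 41.4, 23 and 43.1 kb in *EZH2*ΔSET mice. *Otx2* (chr14:48657677-48673819), a head organiser gene, was the steadiest of the 5, with 27.6, 38.4 and 37 kb in control and 38.3, 40 and 36.7 kb in *EZH2*ΔSET mice. *Lhx4* (chr1:155698031-155751684), a pituitary and motor neuron gene, had 7.61, 36.6 and 28.6 kb in control and 32.7, 27.1 and 33.3 kb in *EZH2*ΔSET mice. The groups overlapped at all of these genes, and the lowest value of each lay in control mouse 1. *En1*, a midbrain and limb regulator, came next by median width, at 30.5 kb against 30.7 kb for *Lhx4*, and ranged from 5 kb in control mouse 1 to 39 kb in control mouse 2.

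Over the 38 members, the median K27me3 domain width per mouse was 2.5, 31.1 and 12.3 kb in control and 14.7, 14.6 and 21.6 kb in *EZH2*ΔSET mice. The means of these medians were 15.3 kb ± 14.5 and 17 kb ± 4.01 (SD, n = 3 mice each), and their difference of 1.66 kb was smaller than the SD of either group. It turned to -4.73 kb without control mouse 1 and rose to 9.57 kb without control mouse 2, and was also below 0, at -2.75 kb, when only the widest peak of each gene was counted. Of the 37 members with any K27me3 over the locus, 35 were narrowest, or tied for narrowest, in control mouse 1, and 31 were widest in control mouse 2. Ranked among all genes of the same mouse, the median member stood at the 64.7th percentile in control mouse 1 and between the 90.1st and the 94.3rd in the other 5 mice.

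**Figure D3:**
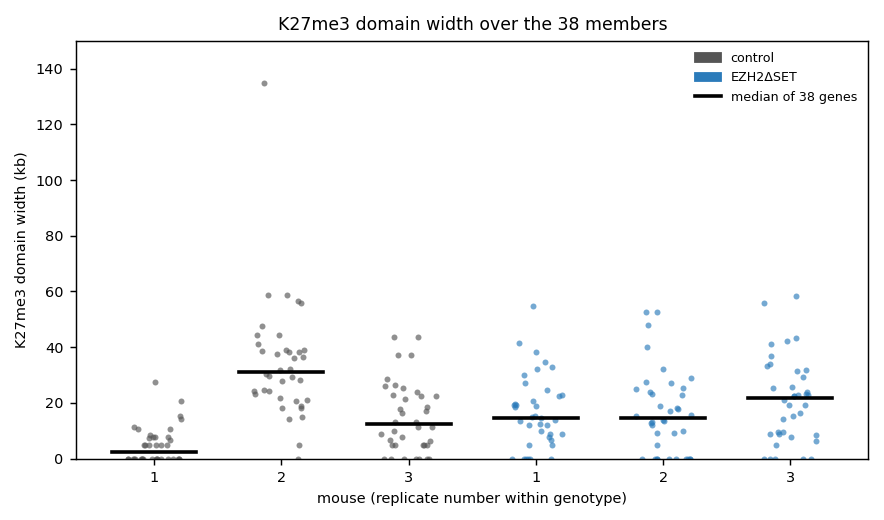
K27me3 domain width in kb of each of the 38 members (points) in each of the 6 mice, coloured by genotype, with the median over the members as a bar. The medians run from 2.5 kb in control mouse 1 to 31.1 kb in control mouse 2, and the bars of the *EZH2*ΔSET mice lie between them.

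By family, all 6 *Dlx* genes were called for K27me3 in at least 4 of 6 mice, and *Dlx1*, *Dlx5* and *Dlx6* in every mouse. *Dlx1* and *Dlx2*, which act together in forebrain interneurons, shared a single K27me3 peak in 5 mice, all but control mouse 1, while *Dlx3* and *Dlx4*, 15.2 kb apart, shared none in any mouse. Domains over *Dlx3*, a skin and placenta regulator, were narrow, with a median of 5 kb and none above 14.1 kb. No K4me3 was called at *Dlx3* or *Dlx5* in any mouse, whereas *Dlx4* and *Dlx6* had it in 5 mice each.

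Of the 6 *Irx* genes, which pattern heart, neural tube and limb, 5 had K27me3 in at least 4 mice. *Irx4*, a ventricular heart gene, was the exception, with K27me3 in control mouse 2 alone and a width of 20.8 kb there. *Irx1* and *Irx2* had K27me3 in 5 and 6 mice and K4me3 in 1 each. *Irx3* and *Irx5* had K4me3 in 6 of 6 mice beside K27me3 in 4 and 5, and *Irx4* and *Irx6* had no K4me3 in any. A noncoding gene starts within 3 kb of *Irx3* (*Irx3os*, 0.108 kb away) and *Irx5* (*Crnde*, 1.5 kb), so their K4me3 peaks may not belong to the *Irx* gene alone. Noncoding starts also lie within 3 kb of *Irx1* (*Gm40999*, 2.88 kb) and *Irx2* (*Gm20554*, 0.256 kb).

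The 5 genes *Six2* to *Six6* fell into separate patterns. *Six2*, *Six3* and *Six6*, regulators of kidney progenitors, forebrain and eye, had K27me3 in 4, 6 and 6 mice and K4me3 in none. *Six6*, described by mouse after its values were seen, had widths of 11.5, 135 and 25.5 kb in control and 27.2, 27.3 and 58.2 kb in *EZH2*ΔSET mice, and the value in control mouse 2 was the widest of any member in any mouse. *Six4* and *Six5*, which are active in muscle and many adult tissues, had K4me3 in all 6 mice, with median widths of 3.36 and 4.45 kb.

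K27me3 reached *Six4* only in control mouse 2, with 24.5 kb, and *Six5* in no mouse. *Six5* was the single member with K4me3 in all 6 mice and K27me3 in none, a state held by 44.4% of all genes. Its K4me3 widths were 4, 2.69 and 4.71 kb in control and 4.55, 4.42 and 4.49 kb in *EZH2*ΔSET mice, so the groups overlapped. The TSS of *Dmpk*, a muscle kinase gene, lies 2.3 kb from that of *Six5*, and a peak there can be counted for both. *Pitx3*, a lens and dopamine neuron regulator, had K4me3 in 6 mice and K27me3 in control mouse 2 only, with 28.3 kb. No member lacked both marks in every mouse, whereas 18.1% of all genes did.

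The 8 *Lhx* genes had the most members with both marks in all 6 mice. K27me3 was in all 6 mice at 5 of them and in 5 mice at *Lhx4*, while *Lhx5*, a forebrain gene, had it in 3 and *Lhx3*, a pituitary and motor neuron gene, in 2. *Lhx1*, *Lhx2* and *Lhx6*, which act in kidney and head formation, forebrain and eye, and interneurons, had both marks in all 6 mice, as did *Gsc*, the goosecoid gene of the gastrula organiser. These 4 members compare with 0.594% of all genes. A gene with more annotated TSSs has more windows for a call, and the 2 marks may be called at different TSSs. *Lhx1*, *Lhx2* and *Lhx6* have 4, 7 and 7 TSSs and *Gsc* has 1. The part of this in the calls was not tested. At *Lhx6* a K4me3 peak overlapped a K27me3 peak in 2 of the 6 mice, and at *Lhx1* in 5. *Lhx3* and *Lhx5* had no K4me3 in any mouse, and *Lhx4*, *Lhx8* and *Lhx9* had it in 5, 2 and 4.

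At *Lhx1* (chr11:84518284-84525535) the K27me3 width was 5, 41.3 and 8.79 kb in control and 12.5, 15.8 and 8.81 kb in *EZH2*ΔSET mice. Its K4me3 width was 0.97, 1.58 and 0.814 kb in control and 0.809, 0.997 and 0.775 kb in *EZH2*ΔSET mice. Both sets overlapped between the groups, and control mouse 2 was highest for each mark. At *Lhx6* the K27me3 width was 7.63, 29.7 and 7.72 kb in control and 10, 5 and 15.1 kb in *EZH2*ΔSET mice, and the K4me3 width ran from 0.923 to 2.94 kb. At *Gsc* (chr12:104471209-104473330) the K27me3 width was 6.7, 21.9 and 9.76 kb in control and 6.68, 12 and 7.6 kb in *EZH2*ΔSET mice, and the K4me3 width ran from 0.501 to 1.06 kb. None of these 3 genes separated the groups by either mark.

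*Dlx6*, *Irx5*, *Msx1*, *Otx1* and *En2* had both marks in 5 mice, and the sixth mouse of each was a control. At *En2*, a cerebellar gene, K27me3 was missing in control mouse 1 and ran up to 37.4 kb, with K4me3 widths of 1.55 to 2.41 kb. *Otx2* and *Pitx1*, a hindlimb and pituitary regulator, had K27me3 in all 6 mice with K4me3 in 1 and 0. *Barx1*, which specifies the stomach, had K27me3 in 5 mice and no K4me3 in any, while *Barx2* had K4me3 in 6 and K27me3 in 2. *Msx2*, *Emx1* and *Emx2*, which act in skull and cortex, had K27me3 in 5, 4 and 5 mice and K4me3 in 4, 2 and 0.

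K4me3 was less common at the members than K27me3 in 5 of 6 mice and, outside control mouse 1, less common than at all genes. The numbers of members with K4me3 were 26, 18 and 19 in control and 16, 20 and 16 in *EZH2*ΔSET mice, with means of 21 ± 4.36 and 17.3 ± 2.31 (SD, n = 3 each). It was called in all 3 mice at 16 members in control tissue (57.1% of all genes) and 14 in *EZH2*ΔSET tissue (60.1%), with 58.6% and 61.7% of autosomal genes. Over all 6 mice, 13 members had it in every mouse, where 56.6% of all genes did, and 12 in none.

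Both marks were called within 3 kb at 10, 17 and 15 members in control and 12, 15 and 12 in *EZH2*ΔSET mice, with means of 14 ± 3.61 and 13 ± 1.73 (SD, n = 3 each). The share of all genes with both marks was 2.16%, 12.3% and 3.78% in control, where mouse 2 lay far above the rest, against 3.9%, 3.1% and 4.89% in *EZH2*ΔSET tissue. In all 3 mice, 5 members had both in control tissue (1.21% of all genes), namely *Lhx1*, *Lhx2*, *Lhx6*, *Lhx9* and *Gsc*. In *EZH2*ΔSET tissue it was 10 (1.64%), which were *Dlx6*, *Irx3*, *Irx5*, *Lhx1*, *Lhx2*, *Lhx6*, *Msx1*, *Otx1*, *Gsc* and *En2*. Of autosomal genes, 0.785% in control and 1.74% in *EZH2*ΔSET tissue were in this state. Without control mouse 1, both marks were found at 12 members in the remaining control mice, with 2.61% of all and 1.81% of autosomal genes. K27me3 in all 3 mice with K4me3 in none was the state of 5 members in control (3.66% of all and 2.81% of autosomal genes) and 11 in *EZH2*ΔSET tissue (5.14% and 5.43%). Without control mouse 1 it was the state of 14 members in control tissue (5.57% and 4.52%).

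Calls within 3 kb need not touch. Of 81 combinations of member and mouse with both marks, a K4me3 peak overlapped a K27me3 peak in 51, or 63%, against 56.9% of the 6743 such combinations over all genes. In control mouse 2 they overlapped at 17 of 17 members, in control mouse 1 at 4 of 10 and in control mouse 3 at 8 of 15, against 7 of 12, 8 of 15 and 7 of 12 in the *EZH2*ΔSET mice. Over all genes with both marks the share was also lowest in control mouse 1, at 33.1%, and highest in control mouse 2, at 69.2%, with 43.7% to 54.7% in the other 4 mice. *Lhx2* had overlapping peaks in 6 of its 6 mice with both marks and *En2* in 5 of 5, whereas *Gsc* had them in 1 of 6 and *Irx5* in 1 of 5.

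The comparison between the genotypes asks whether loss of the EZH2 SET domain in acinar cells moved either mark at these genes. Groups of 3 mice against 3 cannot give an exact permutation p below 0.1, so single genes are described by whether the groups overlapped.

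For K27me3, *Irx6* was the only member of 37 tested whose groups did not overlap, and its domain was wider in *EZH2*ΔSET tissue. *Irx6* (chr8:92674288-92680956) is a neural and retinal member of the Iroquois family. Its domain was 5, 5 and 6.55 kb in control, near the narrowest peak in any list (5001 bp), and 12, 9.25 and 20.9 kb in *EZH2*ΔSET mice. The means were 5.52 kb ± 0.894 and 14.1 kb ± 6.09, a difference of 8.54 kb (SD, n = 3 each; exact permutation test, two-sided, p = 0.1, adjusted p = 1 over all genes). Of all genes tested, 4.53% were higher without overlap in *EZH2*ΔSET and 0.189% lower, where no member was, and among autosomal genes the shares were 5.04% and 0.198%. Without control mouse 2, 13 of 34 members were wider without overlap in *EZH2*ΔSET tissue, compared with only 2 control mice, where 14.5% of all and 17.1% of autosomal genes were. Without control mouse 1, 2 of 37 were narrower, where 2.36% of all and 2.44% of autosomal genes were. *Irx6* overlapped between the groups when width was taken as the bases covered within 25 kb of the gene.

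Mean K27me3 widths lay above control at 20 of 37 members in *EZH2*ΔSET tissue and below at 17, whereas of all genes tested 39.7% lay above and 59.5% below, and of autosomal genes 37.4% and 61.8%. The median difference was 0.588 kb over the members and -1.67 kb over all genes. The split among the members rests on the control libraries: without control mouse 1, 4 of 37 members lay above and 33 below (36.7% and 63.3% of all genes), and without control mouse 2, 33 of 34 lay above and 1 below (70.7% and 29.3%). Without *EZH2*ΔSET mouse 3 it was 13 above and 24 below (35.6% and 64.4%). *Irx1* (chr13:71957921-71963723), a heart and lung patterning gene chosen after its values were seen, had 0, 18.3 and 5 kb in control and 14.6, 48.1 and 14.3 kb in *EZH2*ΔSET mice, so control mouse 2 lay among the *EZH2*ΔSET mice. *Barx2*, chosen in the same way, had 0, 23.3 and 5 kb in control and no K27me3 in any *EZH2*ΔSET mouse. Limma on log2(width + 1000 bp), a test chosen after seeing the data, gave p under 0.05 at 0 of 37 members for K27me3, where 1.02% of all genes were wider and 0.0355% narrower at that level, and at *Irx6* it gave a log2 difference of 1.14 (limma, adjusted p = 0.651).

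**Figure D4:**
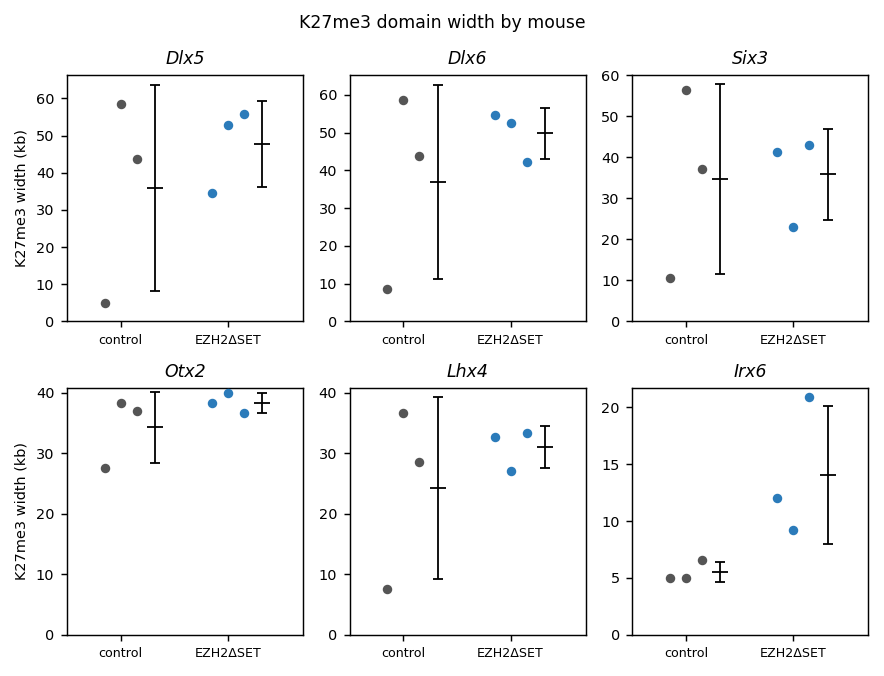
K27me3 domain width in kb at *Dlx5*, *Dlx6*, *Six3*, *Otx2*, *Lhx4* and *Irx6* in each mouse (points, 3 per genotype), with the mean and SD (n = 3) at the right of each group. At *Irx6* the control points lie between 5 and 6.55 kb, below every *EZH2*ΔSET point, and at the other genes the groups overlap.

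For K4me3, every member whose groups did not overlap was narrower in *EZH2*ΔSET tissue. These were *Dlx4*, *Irx5*, *Lhx2* and *Otx1*, 4 of 26 members tested, and 0 were wider. A noncoding gene starts within 3 kb of *Dlx4* (*Dlx4os*, 0.749 kb away), *Irx5* (*Crnde*, 1.5 kb) and *Lhx2* (*Gm27197*, 2.44 kb). The K4me3 peaks counted there may thus not belong to the member alone. Of all genes tested, 2.04% were narrower and 9.55% wider without overlap, and of autosomal genes 2.06% and 9.58%. Each of the 4 genes had p = 0.1 by the two-sided exact permutation test, with an adjusted p of 0.862 over all genes, so none passed the correction. Without control mouse 2, 5 of 26 members were narrower without overlap, where 10.1% of all genes were.

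*Irx5* (chr8:92357625-92376286), which acts in the heart and retina, had K4me3 widths of 4.65, 3.79 and 3.48 kb in control and 2.78, 2.5 and 2.24 kb in *EZH2*ΔSET mice. The means were 3.97 kb ± 0.608 and 2.5 kb ± 0.273 (SD, n = 3 each), a difference of -1.47 kb. *Otx1* (chr11:21994764-22002897), a cortical and inner ear gene, had 3, 2.96 and 2.86 kb in control and 1.45, 1.75 and 1.32 kb in *EZH2*ΔSET mice. The control mice lay close together at *Otx1*, with a mean of 2.94 kb ± 0.0748 against 1.51 kb ± 0.218 (SD, n = 3 each).

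*Lhx2* (chr2:38339281-38369733) had K4me3 widths of 1.75, 2.51 and 1.77 kb in control and 0.501, 1.05 and 1.18 kb in *EZH2*ΔSET mice, with means of 2.01 kb ± 0.434 and 0.909 kb ± 0.359 (SD, n = 3 each). Its K27me3 width was 10.6, 55.8 and 13 kb in control and 22.7, 17.9 and 31.9 kb in *EZH2*ΔSET mice, which overlapped. *Dlx4* (chr11:95140447-95146263), a placental *Dlx* gene, had K4me3 widths of 1.59, 0.827 and 0.759 kb in control and 0.646, 0.501 and 0 kb in *EZH2*ΔSET mice, with means of 1.06 kb ± 0.464 and 0.382 kb ± 0.339 (SD, n = 3 each). The narrowest K4me3 peak in any list was 501 bp, so a value of 0.501 kb is 1 peak of minimum width and 0 means that no peak was called.

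At *Lhx9*, a gonad and limb regulator, K4me3 was at 0 in *EZH2*ΔSET mice 1 and 3, but *EZH2*ΔSET mouse 2 had 2.36 kb, above the 1.76, 2.34 and 0.688 kb of the control mice. *Lhx4* had 0.501, 1.01 and 1.22 kb in control and 0, 1 and 0.501 kb in *EZH2*ΔSET mice, which overlapped. Both genes were chosen after their values were seen.

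**Figure D5:**
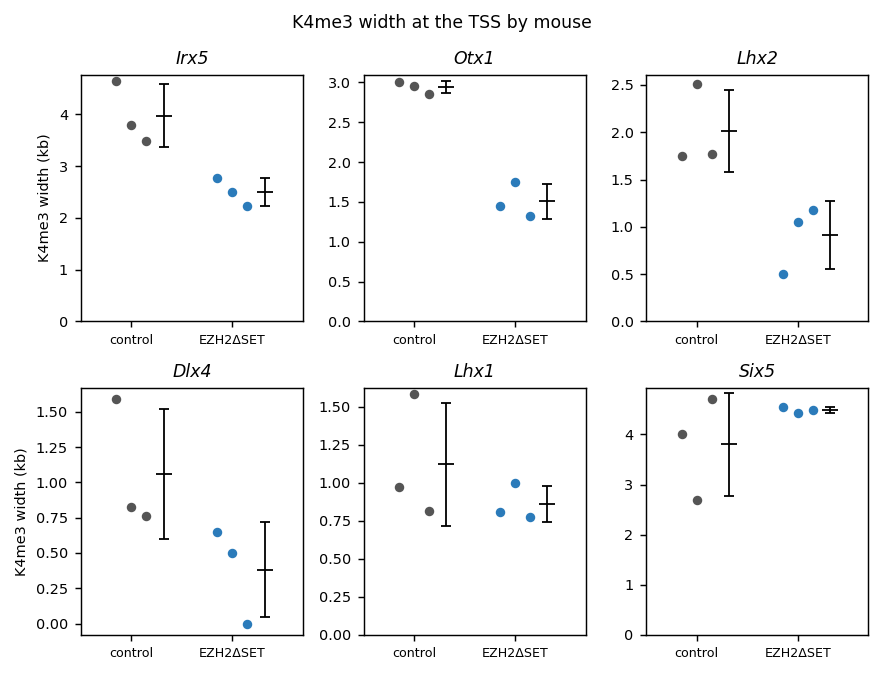
K4me3 width at the TSS in kb of *Irx5*, *Otx1*, *Lhx2*, *Dlx4*, *Lhx1* and *Six5* in each mouse (points, 3 per genotype), with the mean and SD (n = 3) at the right of each group. At *Irx5*, *Otx1*, *Lhx2* and *Dlx4* every *EZH2*ΔSET point lies below the lowest control point, and at *Lhx1* and *Six5* the groups overlap.

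Limma on log2(width + 1000 bp), chosen after seeing the data, gave an unadjusted p under 0.05 at 3 of 26 members for K4me3, all narrower, where 0.801% of all genes were narrower and 2.97% wider at that level. The log2 differences were -0.5 at *Irx5* (limma, adjusted p = 0.624), -0.66 at *Otx1* (limma, adjusted p = 0.153) and -0.67 at *Lhx2* (limma, adjusted p = 0.83). *Dlx4* had -0.59 (limma, adjusted p = 0.83). After adjustment 7 of 14601 genes passed 0.05 and no member was among them. *Irx5* and *Otx1* kept groups without overlap for K4me3 with peaks of at least 1 kb, whereas *Lhx2* and *Dlx4* did not, with differences of -0.401 and -0.365 kb. The groups at these 2 genes also overlapped with equal numbers of widest peaks, with differences of -1.17 kb at *Lhx2* and -0.64 kb at *Dlx4*, against -1.1 and -0.678 kb as deposited. At *Lhx2* they overlapped when peaks within 3 kb were joined, with a difference of -1.54 kb.

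Mean K4me3 widths lay below control at 16 of 26 members in *EZH2*ΔSET tissue and above at 9, whereas of all genes tested 32.1% lay below and 67.6% above. The median difference was -0.279 kb over the members and 0.0937 kb over all genes. Without control mouse 1, the mouse with K4me3 at the most members, 11 of 23 members lay below and 12 above (32.3% and 67.7% of all genes), with a median difference of 0.122 kb over the members, so the direction turned. Without control mouse 2, 22 of 26 lay below and 4 above (45.3% and 54.6% of all genes).

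Lists of other homeobox genes and of partner genes are given for comparison, with no test. Of 25 further developmental homeobox genes, 13 had K27me3, 4 K4me3 and 2 both marks in all 6 mice, beside 15, 13 and 4 of the 38 members. *Alx1*, *Evx1* and *Nkx3-2*, regulators of the face, spinal cord and axial skeleton, had median domains of 41.8, 41.1 and 35.2 kb. Of 14 homeobox genes used by the pancreas, 3 had K27me3 and 10 K4me3 in all 6 mice. *Pdx1* had K4me3 in 6 mice and K27me3 in 1, whereas *Isl1* and *Pax6*, which serve endocrine cells, had both marks in 6 mice. Of 16 partner genes of LIM-homeodomain, sine oculis and Groucho-binding factors, 2 had K27me3 and 12 K4me3 in all 6 mice, with *Ldb1*, the cofactor of LIM-homeodomain proteins, marked by K4me3 alone.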

How the data were processed

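Whole pancreas of 3 control and 3 *EZH2*ΔSET mice was profiled for K27me3 and K4me3, giving 12 peak lists, and 6 input samples had no list. A further 6 mice of the series are not reported here. The authors checked reads with FastQC, aligned them to mm10 with Bowtie2 and used HOMER (findPeaks, histone mode) to call each mouse's peaks over its input and the local background. The deposited score column is 1 for every peak and was not used; no height or read count is given, so depth is unknown and no interval for counting error could be given. Peak positions were compared with GENCODE vM21 on mm10. Of its 55450 genes, 22379 had an Entrez identifier on the autosomes, X or Y. The replicate mice are separate animals.

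Two-sided exact permutation tests compared mean widths per gene, with Benjamini-Hochberg adjustment over all genes with a peak in any of the 6 mice. The smallest p is 0.1 for 3 mice against 3. No test was run over the members as a list. Limma was run on log2(width + 1000 bp). The code was tested on simulated data. The members, gene lists and tests were chosen with earlier results of these data known. Genes described mouse by mouse were those with the 5 widest median domains, a width without overlap between the genotypes, both marks in the most mice, or K4me3 without K27me3 in all mice, each taken over the 6 mice, and a few named as chosen later. Alternatives were other TSS windows, minimum widths, joining of peaks, equal numbers of peaks, other definitions of width, presence in 2 of 3 mice, and each mouse left out. Python 3.11.15, numpy 2.4.6, pandas 2.3.3, R 4.3.3 and limma 3.58.1 were used.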

Additional observations from a re-analysis of the deposited data

How the results depend on the processing

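Over 140 alternative values of 13 summary measures that the setting could change, 106 stayed within 1.5 times the count, or 1 SD, and 34 moved. The band of 1 SD is wide for the K27me3 widths, at 14.5 kb for the difference of 1.66 kb between the genotypes. Differences of -4.73 kb without control mouse 1 and 9.57 kb without control mouse 2 thus count as staying, although the first has the other sign. For widths the tally therefore says little about stability. Of 16 alternative values at the 5 genes without overlap, 10 kept their call, 6 lost it and 0 reversed; values with 1 mouse left out are not counted here, since groups without overlap cannot come to overlap in that way. The cause of these changes was not tested, and unknown depth and 3 mice per genotype limit what could be detected. A planned test over more mice than the 6 described here was not run.

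No share of all genes was computed for the counts of members called for a mark in this paragraph, so they are not read as results about the members. Members with both marks in all 3 mice were 2 in control and 8 in *EZH2*ΔSET with gene starts alone, and 3 in each genotype with a 1 kb window. A 10 kb window gave 25 control and 29 *EZH2*ΔSET members with K27me3, and 12 and 15 with both marks. K27me3 from 100 kb upstream gave 23 control and 29 *EZH2*ΔSET members. With K4me3 peaks of at least 1 kb, K4me3 members were 8 in each genotype, both-mark members 0 in control and 4 in *EZH2*ΔSET, and members with narrower K4me3 without overlap 2 (1.96% of all genes). Joining peaks within 3 kb gave 3 members with wider K27me3 without overlap, with 4.62% of all genes. Equal numbers of widest peaks gave 11 control and 8 *EZH2*ΔSET members with K4me3, 2 control and 4 *EZH2*ΔSET members with both marks, and 2 with narrower K4me3 (2.29% of all genes). Presence in 2 of 3 mice gave 30 control and 32 *EZH2*ΔSET members with K27me3, and 14 and 12 with both marks. Bases covered within 25 kb gave a median width of 26 kb in *EZH2*ΔSET and 19.8 kb in control, and 2 members with wider K27me3 (4.81% of all genes). The widest single peak gave medians of 11.7 kb in *EZH2*ΔSET and 14.4 kb in control (a difference of -2.75 kb).

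The following were chosen after seeing the data, as were the K4me3 width counts above. K27me3 peaks of at least 10 kb left 5 control and 14 *EZH2*ΔSET members, with medians of 12 kb in control and 9.17 kb in *EZH2*ΔSET (a difference of -2.81 kb). The share of all genes called with this minimum was not computed, so whether 5 against 14 is particular to the members is unknown. Percentiles within each mouse gave 2 members with wider and 1 with narrower K27me3. No share of all genes was computed by percentile, so these counts are not read as a result about the members. Limma in place of the overlap rule gave 0 with wider K27me3.

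Same-numbered mice of the genotypes did not deviate together (correlations of -0.02 to 0.09), so no pairing by number was seen in the K27me3 widths. With 3 mice per genotype and control mice 1 and 2 standing apart, this check cannot exclude that same-numbered mice were handled together. With a replicate block the difference in median K27me3 width was 1.66 kb, which in this balanced design the block cannot change, and the SD of the 3 within-number differences was 15.8 kb.

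Leaving out 1 mouse at a time gave 15 to 30 control members with K27me3 (30 without control mouse 1) and 6 to 12 with both marks (12 without control mouse 1). Wider K27me3 without overlap was found at 1 to 13 members (13 without control mouse 2) and narrower at 0 to 2 (2 without control mouse 1). Wider K4me3 was found at 0 to 2 members (2 without control mouse 1 or 3, with 15.5% and 23.9% of all genes) and narrower at 4 to 7 (7 without *EZH2*ΔSET mouse 2, with 4.56% of all genes, and 5 without control mouse 2, with 10.1%). The difference in median width ran from -4.73 kb without control mouse 1 to 9.57 kb without control mouse 2, and was also below 0, at -0.654 kb, without *EZH2*ΔSET mouse 3.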

Other observations

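Of 14 pancreatic homeobox genes, 4 had K27me3 in all 3 control mice and 4 in all 3 *EZH2*ΔSET mice, with 5.74% and 7.33% of all genes. Only 3 had it in all 6 mice. *Nkx6-1*, a beta cell regulator, had K27me3 in 6 mice with K4me3 in 5, and *Nkx2-2*, an endocrine regulator, had K4me3 in 6 with K27me3 in 1. Of 25 further developmental homeobox genes, 13 had K27me3 in all 3 control mice and 19 in all 3 *EZH2*ΔSET mice, with 5.74% and 7.33% of all genes. The count rests on control mouse 1: without it, 19 were called in both remaining control mice, and 6 were missing in control mouse 1 alone. Among partner genes, *Eya1* and *Eya4*, which encode coactivators of the sine oculis family, had K27me3 in 6 mice with median widths of 22.1 and 64.5 kb, while *Eya3* had K4me3 alone.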
